A study of Mus musculus with 12 samples.

Results

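Pde4b and 4 other genes for phosphodiesterases that degrade cyclic AMP (Pde4a, Pde4d, Pde7a and Pde8a) were followed in mouse peritoneal macrophages, with and without apolipoprotein A-I (apoA-I), in cells with and without MyD88. These 5 genes, of 27962 gene names on the array, were chosen from results measured in the same 4 groups, in which Pde4b differed with apoA-I. The values of their probes are therefore given as a description, with no p-value. The array carried 13 probes for them, each followed on its own: 2 for Pde4a, 4 for Pde4b, 4 for Pde4d, 2 for Pde7a and 1 for Pde8a. Of these, 8 stood well above background in every sample of 1 group or more and could be compared; the other 5 were the 4 Pde4d probes and a Pde4b probe.

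Cyclic AMP is made by adenylyl cyclases when receptors coupled to stimulatory G proteins are engaged, acts through protein kinase A and Epac, and is removed by phosphodiesterases. The PDE4 enzymes are specific for cyclic AMP and are the main such enzymes of many leukocytes; cyclic AMP restrains inflammatory cytokine output in macrophages, and PDE4 inhibitors are used as anti-inflammatory drugs. Pde4b is transcribed from several start sites into long and short forms that share the catalytic part and the C-terminal end.

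The macrophages came from female mice aged 10 weeks, C57BL/6 or MyD88-null, the latter lacking an adaptor protein used by Toll-like and interleukin-1 receptors. All were drawn out with thioglycolate, an irritant, collected 96 h later, loaded overnight with cholesterol at 10 µg/ml and kept with 25 µg/ml polymyxin B, which binds lipopolysaccharide. The controls then received no apoA-I, and apoA-I, a lipoprotein component that takes up cellular cholesterol, was given to the treated cells at 10 µg/ml; source names give 2 h for all 4 groups. Each group held 3 arrays, numbered as replicates 1 to 3, made from 500 ng of total RNA, and the series title asks what apoA-I induces and how this depends on MyD88. The labels tie no sample to an animal or a pool, so errors and p-values cover only the spread among these samples, and that spread could be technical.

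In its description C57BL/6 control replicate 2 has the apoA-I step, and that of replicate 2 of the treated MyD88-null cells lacks it, against their titles and source names. Titles and source names were followed, and results are also given without these samples. Levels are log2 signals relative to the 75th percentile of the array, so that 0 is that percentile. The percentile ran from 199.5 to 1408 intensity units over the 12 arrays, and 57.6% to 73.6% of probes were well above background. All 7 macrophage markers measured were above background on all 12 arrays. The Myd88 probe was above background in every sample, at 3.31 ± 0.30 (SD, n = 3) in C57BL/6 controls and 3.96 ± 0.48 with apoA-I, and at 1.79 ± 0.36 in MyD88-null controls and 2.81 ± 0.42 with apoA-I. Its genotype difference in control cells, -1.52 with SE 0.32, did not pass (limma, adjusted p = 0.268), and the labels do not say whether the probe lies in the deleted part.

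The Pde4b probes lie along the gene, and a pair of them are shown because their letters place them at opposite ends of the coding sequence. Both are written 5′ to 3′ as deposited; the capitals mark the ATG that begins an open frame running to the end of the first, and the stop codon that ends the open frame of the second.
Pde4b A_52_P149801: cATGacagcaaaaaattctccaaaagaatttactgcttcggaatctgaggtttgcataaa
Pde4b A_52_P423247: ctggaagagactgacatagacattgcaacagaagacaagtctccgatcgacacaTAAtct
The first, at chr4:101631659-101631718 (mm7, plus strand), holds the start of a long form. The second, at chr4:101981444-101981503, holds the C-terminal end that the forms share. Probe A_51_P512340 lies beyond that stop codon, at chr4:101981987-101982045, starting 543 bases further along. Probe A_52_P370274 lies at chr4:101947595-101947654, 34.4 kb before the start of A_51_P512340, and its place in the transcript was not determined here.

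Pde4b was higher with apoA-I in both genotypes on all 3 probes above background. In C57BL/6 control cells, probe A_51_P512340 read 1.17, 0.48 and 1.00 in replicates 1, 2 and 3. With apoA-I these cells read 3.74, 3.38 and 3.52. In MyD88-null controls it read -1.53, -1.27 and -1.43, and with apoA-I 3.84, 3.03 and 2.82. Every treated sample thus lay above every control sample, the MyD88-null controls were lowest of all, and the treated samples of the 2 genotypes overlapped. The order of group means was MyD88-null control at -1.41 ± 0.13 (SD, n = 3), C57BL/6 control at 0.88 ± 0.36, MyD88-null apoA-I at 3.23 ± 0.54 and C57BL/6 apoA-I at 3.55 ± 0.18; only the upper neighbours overlapped. In bulk samples, fewer cells that express a gene and less RNA per cell cannot be told apart.

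**Figure D1:**
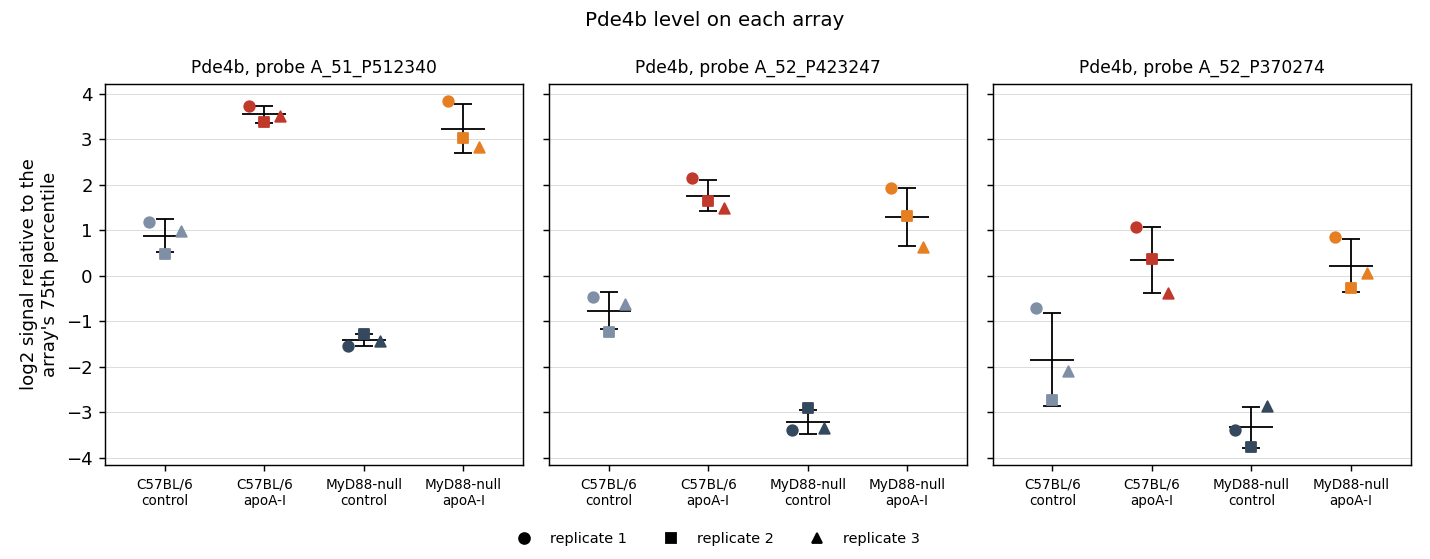
Level of Pde4b on each of the 12 arrays for the 3 probes above background, as log2 signal with the 75th percentile of the array at 0. Points are single arrays, with the replicate number as symbol; bars are the mean and SD of 3 arrays. On A_51_P512340 the MyD88-null controls sit between -1.53 and -1.27, below the C57BL/6 controls, while the treated samples of the 2 genotypes overlap.

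The log2 difference of apoA-I and control on this probe was 2.66 (SE 0.29) in C57BL/6 cells, which is 6.33-fold, and 4.64 (SE 0.29) in MyD88-null cells, which is 25.0-fold. By replicate number it was 2.56, 2.90 and 2.52 in C57BL/6 cells and 5.37, 4.31 and 4.25 in MyD88-null cells. No C57BL/6 value reached the lowest MyD88-null value. The difference between the responses was 1.98 (SE 0.41) and did not pass the threshold, an adjusted p under 0.05 in limma's test over all 24351 probes.

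The coding-end probe, A_52_P423247, gave the same order. It read -0.46, -1.23 and -0.61 in C57BL/6 controls and 2.15, 1.64 and 1.50 with apoA-I. MyD88-null controls read -3.38, -2.91 and -3.33, and treated MyD88-null cells 1.93, 1.31 and 0.64. The groups with and without apoA-I did not overlap, and neither did the control groups of the 2 genotypes. The log2 differences with apoA-I were 2.53 (SE 0.35) in C57BL/6 and 4.50 (SE 0.35) in MyD88-null cells, and their difference was 1.97 (SE 0.50). Over the 12 arrays this probe correlated with A_51_P512340 at r = 0.996, a description over arrays that share the groups.

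Probe A_52_P370274, further upstream, was also higher with apoA-I but more scattered. It read -0.71, -2.72 and -2.10 in C57BL/6 controls and 1.07, 0.37 and -0.37 with apoA-I. In MyD88-null controls it read -3.38, -3.75 and -2.85, and with apoA-I 0.86, -0.26 and 0.07. Treated and control samples of a genotype did not overlap, although C57BL/6 control replicate 1 lay close to treated replicate 3. The log2 differences were 2.20 (SE 0.54) in C57BL/6 and 3.55 (SE 0.54) in MyD88-null cells.

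The long-form probe A_52_P149801 was above background on 0 of the 12 arrays. Its level, between -7.75 and -5.18, is only a bound, so no difference was taken from it. A higher signal with apoA-I was thus measured at the shared C-terminal end, beyond the stop codon and at the probe 34.4 kb upstream, and was not measurable at the start of this long form.

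In the C57BL/6 response, 2 of the 8 comparable probes passed the threshold, A_51_P512340 and A_52_P423247, beside 0.76% of all probes. In the MyD88-null response 3 of 8 passed, all Pde4b and all higher, beside 1.1%. Groups did not overlap on the same 3 probes in each response, beside 13.2% and 11.3% of all probes. Since the genes were chosen on these contrasts, nothing is read from these shares. The replicate numbers were taken to pair the samples. With the number as a block 3 of 8 probes passed in C57BL/6 cells, A_52_P370274 being the third, beside 3.31% of all probes. Nothing is read from this share either. In the difference of the responses 0 of 8 passed, beside 0% of all probes; 265 of 24351 probes had an unadjusted p under 0.05, and none passed with the replicate block either.

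**Figure D2:**
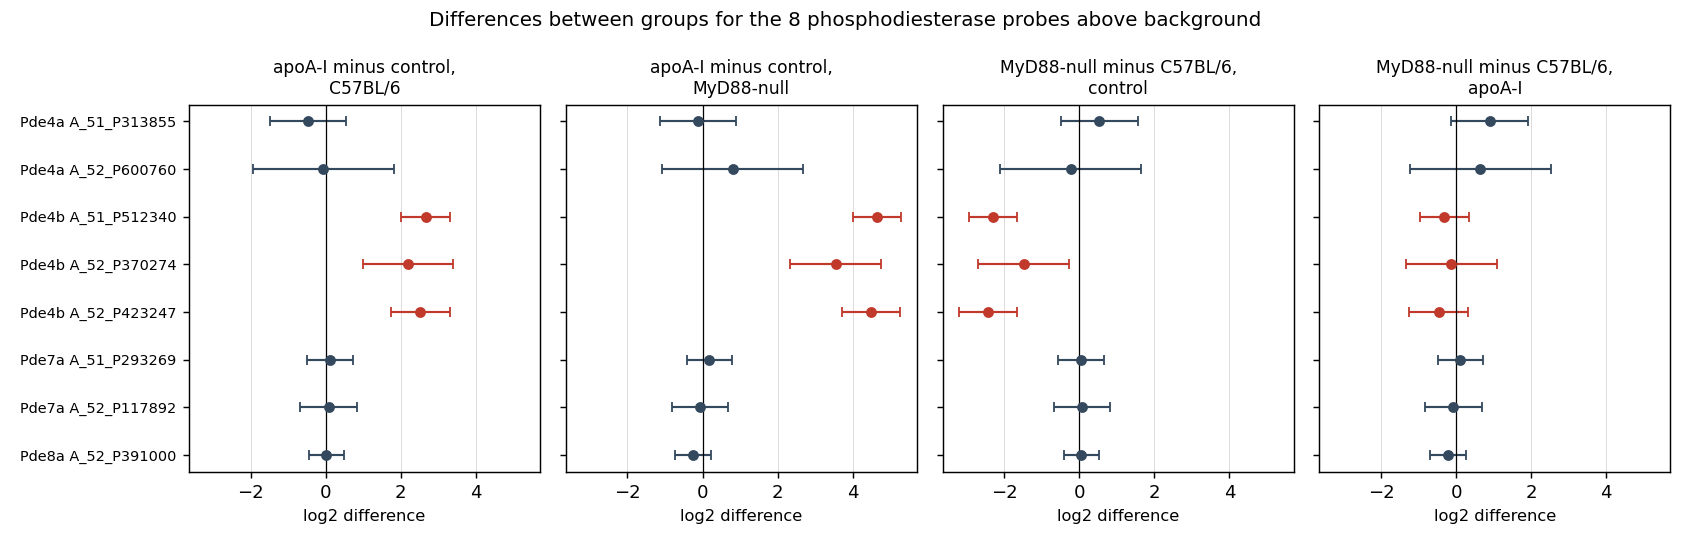
Log2 differences between groups for the 8 probes above background, with 95% intervals from the limma fit over all 12 arrays; red marks Pde4b. Pde4b lies right of 0 in both apoA-I responses and left of 0 between control cells, while the intervals of the Pde4a, Pde7a and Pde8a probes include 0.

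Control cells of the 2 genotypes differed in Pde4b before any apoA-I was added. On A_51_P512340 the MyD88-null controls were lower by a log2 difference of -2.29 (SE 0.29), a 4.91-fold difference, on A_52_P423247 by -2.44 (SE 0.35) and on A_52_P370274 by -1.49 (SE 0.54). Only A_51_P512340 passed, 1 of 8 probes beside 0.0575% of all probes, and the 3 Pde4b probes did not overlap between genotypes, beside 9.97%. With the replicate block 2 of 8 passed, beside 0.501% of all probes, A_52_P423247 being added. The genes were chosen with these contrasts known, so nothing is read from these shares. Leaving out single samples gave 0 to 2 passing probes, with A_51_P512340 passing in 4 of 12 such fits. Its log2 difference stayed between -2.49 and -2.15 in those fits.

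The summed marker lists of B cells and mast cells also differed between the genotypes. All 4 B cell and 4 mast cell markers were above background on all 12 arrays. The summed level of the B cell list was 2.91 to 3.14 in C57BL/6 and 2.15 to 2.36 in MyD88-null controls, and that of the mast cell list was 0.75 to 1.18 and -0.06 to 0.65. With apoA-I the B cell list was again higher in C57BL/6 (2.95 to 3.09) than in MyD88-null cells (2.03 to 2.87). So was the mast cell list (0.86 to 1.22 against -0.07 to 0.58). The macrophage, T cell, neutrophil, eosinophil and mesothelial lists overlapped between the genotypes in control and in treated cells. Of all probes, 9.97% did not overlap between the control groups and 5.31% between the treated groups. No marker passed in any comparison. Their part in the Pde4b difference was not tested.

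With apoA-I, the genotypes were close in Pde4b. The log2 difference of MyD88-null and C57BL/6 cells was -0.31 (SE 0.29) on A_51_P512340, -0.47 (SE 0.35) on A_52_P423247 and -0.13 (SE 0.54) on A_52_P370274. The 95% interval on the first ran from -0.96 to 0.33. None of the 8 probes passed, beside 0.0493% of all probes, and none was free of overlap, beside 5.31%. The comparisons share groups: the larger response of MyD88-null cells and their lower control level rest on the same 3 control arrays.

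Scan day 2 and slide 3 held only MyD88-null arrays and slide 4 a single array, while the other days and slides held both genotypes. On A_51_P512340 the C57BL/6 response was 2.73 on scan day 1 (2 arrays against 2) and 2.52 on day 3 (1 against 1). The MyD88-null response was 4.57, 5.12 and 4.25 on days 1, 2 and 3, each with 1 array against 1. Between control cells the difference was -2.36 on day 1 (1 MyD88-null array against 2) and -2.42 on day 3. On A_52_P370274 the small difference between treated cells changed sign, from -0.98 on day 1 to 0.44 on day 3. Without the samples of conflicting description, the C57BL/6 and MyD88-null responses were 2.46 and 4.74, A_52_P423247 no longer passed in C57BL/6 cells, and the control difference was -2.49 and did not pass. Over all 24351 probes 78 and 112 then passed in the 2 responses, against 185 and 269 with these samples. If the descriptions were followed instead of the titles, the responses would be 1.70 and 3.63. In either, 0 of 8 probes would pass, beside 0 of all 24351. C57BL/6 control replicate 2, at 0.48, was the lowest of its group, and MyD88-null apoA-I replicate 2, at 3.03, lay between the other 2 of its group. Pde4b was chosen from results that used the groups of the titles, so its levels cannot settle which label is right.

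Pde4a, which encodes another PDE4 enzyme, showed no shift of this kind. Probe A_51_P313855 (chr9:21088068-21088127) read -0.28, -0.47 and 0.25 in C57BL/6 controls and -0.75, -1.19 and 0.03 with apoA-I. MyD88-null controls read 0.04, 0.41 and 0.66, and treated cells 0.87, -0.79 and 0.69. Groups overlapped in each comparison, with log2 differences with apoA-I of -0.47 (SE 0.46) and -0.12 (SE 0.46). By replicate number the C57BL/6 response was -0.47, -0.72 and -0.22, and the MyD88-null response 0.83, -1.21 and 0.02. MyD88-null cells were above C57BL/6 cells by 0.54 (SE 0.46) without and 0.89 (SE 0.46) with apoA-I, higher in every pair. The probe did not pass in any comparison with or without the replicate block.

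Probe A_52_P600760 of Pde4a (chr9:21068180-21068239) separated by replicate number rather than by group. In replicate 3 it read -3.72, -3.45, -3.64 and -2.77 in C57BL/6 cells without and with apoA-I and MyD88-null cells without and with it. In replicates 1 and 2 it lay between -1.92 and -0.75 in all 4 groups. All replicate 3 arrays, and no others, were scanned on day 3 and processed with Feature Extraction 9.5.3.1. The replicate, the scan day and the software version therefore cannot be told apart on this probe. The log2 difference with apoA-I was -0.06 (SE 0.85) in C57BL/6 and 0.81 (SE 0.85) in MyD88-null cells, with a 95% interval of -1.94 to 1.81 in C57BL/6 cells. Within replicate numbers the MyD88-null response was 0.91, 0.65 and 0.87, positive in 3 of 3 pairs, and the SE with the replicate block was 0.21. The C57BL/6 response was -0.74, 0.28 and 0.27, and the difference of treated MyD88-null and C57BL/6 cells was 0.93, 0.32 and 0.68. The probe did not pass in any comparison with the block.

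Pde7a and Pde8a, phosphodiesterases of high affinity for cyclic AMP that are not blocked by PDE4 inhibitors, stayed within narrow ranges. Over the 12 arrays Pde7a probe A_51_P293269 (chr3:18958238-18958297, minus strand) ran from -1.62 to -0.73 and A_52_P117892 (chr3:18961714-18961773) from -3.58 to -2.44. Pde8a probe A_52_P391000 (chr7:77206775-77206834) ran from -1.33 to -0.54. The apoA-I differences were 0.12 (SE 0.27), 0.08 (SE 0.34) and 0.02 (SE 0.21) in C57BL/6 cells. In MyD88-null cells they were 0.18 (SE 0.27), -0.07 (SE 0.34) and -0.25 (SE 0.21). The 95% interval of Pde8a, from -0.45 to 0.49 in C57BL/6 cells, was the narrowest of the 8 probes.

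**Figure D3:**
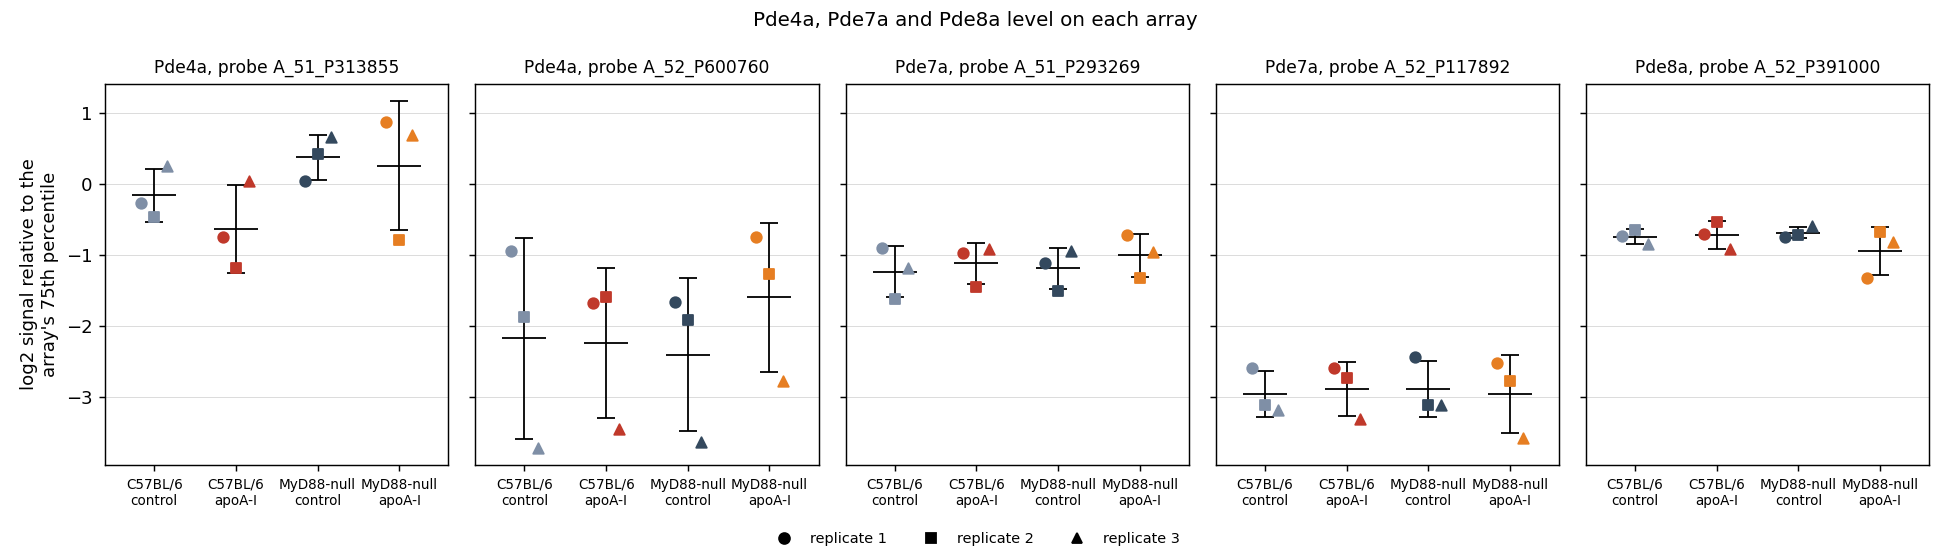
Level of Pde4a, Pde7a and Pde8a on each of the 12 arrays, as log2 signal with the 75th percentile of the array at 0. Points are single arrays, with the replicate number as symbol; bars are the mean and SD of 3 arrays. Groups overlap on all 5 probes, and replicate 3 is the lowest of each group on Pde4a probe A_52_P600760.

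Pde4d, a further PDE4 gene, was near background. Probes A_51_P120990 and A_52_P582018 were each well above background on 2 of 12 arrays, those of C57BL/6 control replicate 3 and of replicate 1 of MyD88-null apoA-I cells, and A_52_P589745 on the latter only. A_52_P398941 was above background on 0 arrays. That latter sample also had the lowest 75th percentile of the 12 arrays, 199.5, and the largest share of probes above background, 73.6%. No comparison was made for Pde4d.

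The rest of the cyclic AMP pathway was followed through 7 lists of genes, 105 in all, of which 82 had a comparable probe, 38 of them several. Taking each gene by its probe of highest mean, 0 of 82 passed in limma's fit without a block in each of the 5 comparisons, with 0 to 6 genes per list at an unadjusted p under 0.05. Over all 143 probes of these genes, 3 genes passed without the block in C57BL/6 cells, Adora2a, Akap13 and Thbs1. In MyD88-null cells 2 passed, Adora2a and Akap13. Each did so on a probe other than that of highest mean. These were 3 and 2 of the 143 probes, beside 0.76% and 1.1% of all probes. With the replicate block, by the probe of highest mean, 4 of 82 genes passed in the C57BL/6 response, 2 in the MyD88-null response and 1 between control cells, beside 3.31%, 3.82% and 0.501% of all probes. Over all 143 probes these counts were 7, 5 and 2 genes, through 9, 6 and 2 probes, beside the same shares of all probes. A gene with several probes has more chances to be counted in this way.

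**Figure D4:**
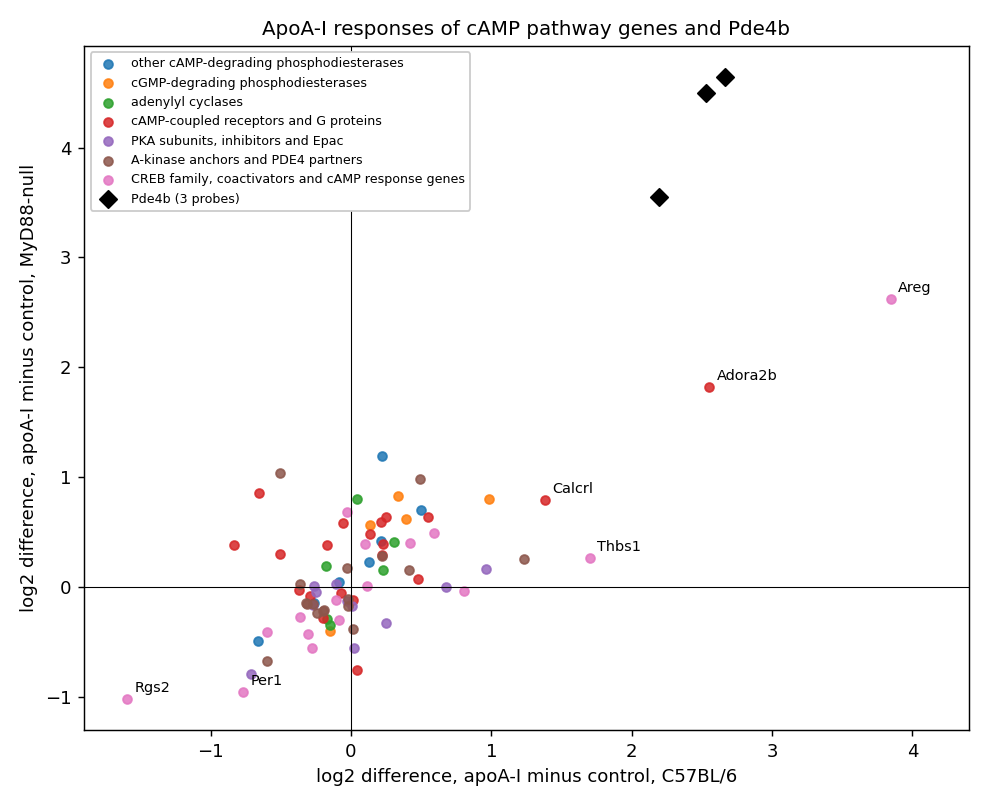
Log2 difference of apoA-I and control in C57BL/6 (x axis) and MyD88-null cells (y axis) for 82 genes of the cyclic AMP pathway, each by its probe of highest mean and coloured by list, and for 3 Pde4b probes (black diamonds). Pde4b lies at 2.20 to 2.66 on x and 3.55 to 4.64 on y; Areg, Adora2b and Thbs1 lie to the right and Rgs2 to the left.

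Of the other phosphodiesterases for cyclic AMP, 7 of 11 were measured and 0 passed in either direction; their median log2 difference was 0.13 in C57BL/6 and 0.22 in MyD88-null cells, beside 0.01 and 0.03 over all probes. Pde3b, an enzyme blocked by cyclic GMP, had differences of 0.13 (SE 0.28) and 0.22 (SE 0.28). Pde7b had -0.66 (SE 0.28) and -0.50 (SE 0.28), and Pde10a, which also degrades cyclic GMP, 0.22 (SE 0.52) and 0.42 (SE 0.52). The list of phosphodiesterase genes for cyclic GMP also holds genes of non-catalytic subunits. Of it 5 of 8 were measured, Pde6b, Pde6d, Pde6g, Pde6h and Pde9a, with medians of 0.34 and 0.62 and 0 passing. Pde6b and Pde9a were dim, at means of -5.08 and -4.40 in MyD88-null controls, and above background in 2 of these 3 arrays. Without the filter the medians over all 41174 probes were 0.06 and 0.38, so nothing is read from the medians of dim genes.

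Of the adenylyl cyclases, which make cyclic AMP, 6 of 10 were measured and 0 passed; Adcy7, the form known from blood cells, had differences of -0.17 (SE 0.24) and -0.29 (SE 0.24). Of the receptors and G proteins 20 of 25 were measured, with medians of 0.03 and 0.38. Over all probes the medians were 0.01 and 0.03 with the filter and 0.06 and 0.38 without it. Adora2b, an adenosine receptor that raises cyclic AMP, read -0.47, -0.43 and -1.81 in C57BL/6 controls and 1.39, 2.67 and 0.90 with apoA-I. MyD88-null cells read -1.10, -0.54 and -1.96 without and 0.11, 1.79 and -0.05 with apoA-I. The differences of 2.55 and 1.82 did not pass without the block (limma, adjusted p = 0.155 and 0.405) and did with it (adjusted p = 0.0026 and 0.011), higher in 3 of 3 pairs in each genotype.

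The prostaglandin E2 receptors Ptger2 and Ptger4 had differences of -0.50 (SE 0.32) and 0.23 (SE 0.36) in C57BL/6 and 0.30 (SE 0.32) and 0.39 (SE 0.36) in MyD88-null cells.

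Adora2a, the other adenosine receptor that raises cyclic AMP, was read by 2 probes that disagreed. On A_51_P387348 (chr10:74990257-74990317) the C57BL/6 controls read 1.96, 1.60 and 1.13, and treated C57BL/6 cells 3.84, 4.04 and 3.54. MyD88-null controls read -0.49, -0.58 and -0.96, and treated MyD88-null cells 2.37, 3.31 and 2.05. No pair of groups compared overlapped on this probe, and the MyD88-null controls were the lowest, as for Pde4b. It rose with apoA-I by 2.24 (SE 0.34) in C57BL/6 and 3.25 (SE 0.34) in MyD88-null cells (limma without a block, adjusted p = 0.013 and 0.00082). Its difference between control cells, -2.24 (SE 0.34), passed with the replicate block (adjusted p = 0.0068) and not without it (adjusted p = 0.056). The probe of highest mean, A_52_P240878 (chr10:74988878-74988937), had differences with apoA-I of 0.25 (SE 0.65) and 0.64 (SE 0.65) and did not pass with or without the block. This probe was named through its accession and A_51_P387348 through its symbol.

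Ramp1, a partner of the calcitonin receptor-like receptor, read -0.78, -0.78 and -0.76 in C57BL/6 controls and 0.33, 0.10 and 0.23 in MyD88-null controls. That difference of 0.99 passed with the replicate block (limma, adjusted p = 0.021) and not without it (adjusted p = 0.133). Calcrl, the gene of the calcitonin receptor-like receptor, passed only with the block and on a further probe, A_52_P58949. Its differences with apoA-I there were 1.74 in C57BL/6 and 1.86 in MyD88-null cells (limma, adjusted p = 0.014 and 0.0080). The Calcrl probe of highest mean, A_51_P225186, had 1.38 and 0.79 and did not pass.

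Of protein kinase A subunits, its inhibitors and Epac, 11 of 13 were measured and 0 passed. The catalytic subunit Prkaca had differences of -0.10 (SE 0.23) and 0.02 (SE 0.23), and the regulatory subunit Prkar1a 0.01 (SE 0.19) and -0.17 (SE 0.19). Of the A-kinase anchors and PDE4 partners 17 of 21 were measured, with medians of -0.19 and -0.14. Akap13, an A-kinase anchor, passed without the block on different probes in the 2 genotypes, with 1.13 (SE 0.22) on A_52_P414750 in C57BL/6 cells and 1.80 (SE 0.36) on A_51_P452702 in MyD88-null cells (limma, adjusted p = 0.047 each). With the block A_52_P414750 passed in MyD88-null cells too, with 0.89 (limma, adjusted p = 0.028).

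Of the CREB family and genes known to respond to cyclic AMP, 16 of 17 were measured, with medians of -0.06 and -0.08 and members on either side of 0. Areg, a growth factor of the EGF family, was below background in all C57BL/6 controls and read 0.26, -3.88 and -4.15 with apoA-I, at least 4.92-fold higher by the mean over the lowest signal above background; replicate 1 stood far above the other 2. Its adjusted p was 0.208 without and 0.027 with the block in limma. Thbs1, which encodes thrombospondin 1, had a difference of 1.70 in C57BL/6 cells (limma, adjusted p = 0.225 without, 0.015 with the block) and 0.26 in MyD88-null cells. Its probe A_52_P337086 had 1.45 in C57BL/6 cells and passed without the block (adjusted p = 0.047). Thbs1 probe A_52_P337092 had 1.96 in C57BL/6 cells and passed only with the block (limma, adjusted p = 0.018).

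Rgs2, a brake on G protein signalling, had -1.59 in C57BL/6 cells (adjusted p = 0.222 without, 0.032 with the block) and -1.02 in MyD88-null cells. The clock gene Per1 had -0.77 in C57BL/6 and -0.96 in MyD88-null cells, the latter passing with the block (adjusted p = 0.386 without, 0.024 with it). The transcription factors Creb1 and Crem had -0.03 (SE 0.37) and -0.28 (SE 0.26) in C57BL/6 cells and 0.68 (SE 0.37) and -0.56 (SE 0.26) in MyD88-null cells. Their probes disagreed in C57BL/6 cells. Creb1 had 0.57 (SE 0.26) on A_52_P174396 and 0.43 (SE 0.27) on A_52_P517730. Crem had 0.66 (SE 0.19) on A_52_P367026, which was above background in 1 of 3 C57BL/6 controls, and -0.28 to -0.02 on its other probes. None of these probes passed with or without the block. Without the block 6 of 16 genes of this list had an unadjusted p under 0.05 in the C57BL/6 response, beside 7.29% of all probes, and 3 in the MyD88-null response, beside 8.4%. The first was the highest count of any list in any comparison. The list was chosen with earlier results of these data known, so nothing is read from these shares.

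The genes whose pattern over the 12 arrays was most like that of Pde4b on A_51_P512340 were Nfkbia (Pearson r = 0.993), Tnfaip3 (0.984), Slfn2 (0.982), Casp4 (0.981) and Acod1 (0.981). The 12 arrays share the 4 groups and their scaling, so these are descriptions. Nfkbia was at 6.06 ± 0.41 (SD, n = 3) in C57BL/6 controls, 3.59 ± 0.34 in MyD88-null controls, and 8.27 ± 0.23 and 8.37 ± 0.79 with apoA-I, the same order of controls as Pde4b. The patterns most opposed to Pde4b were those of Zfp120 (r = -0.962), Snrk (-0.941) and Lpar6 (-0.931). Lpar6 was highest in MyD88-null controls, at 1.91 ± 0.29, followed by C57BL/6 controls at 0.78 ± 0.13.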

How the data were processed

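RNA of 12 samples was measured on one-colour Agilent arrays. The deposited scanner files hold Cy3 intensities from Agilent Feature Extraction (9.5 per the submitters' processing notes; per the file headers 9.5.1.1 for replicates 1 and 2, 9.5.3.1 for replicate 3); processed intensities are background-corrected within the array. A deposited table follows the log10 of these intensities (r of 0.993 to 0.9997 per array, column medians of 1.82 to 1.87) and served as an alternative; no source used here gives its centring or scaling.

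Log2 processed intensity minus the log2 of the array's 75th percentile over probes was averaged over spots of a probe, leaving out outlier spots. Of 41174 probes, 24351 stood well above background in every sample of 1 group or more. These were fitted with limma 3.58.1 (R 4.3.3), with 1 mean for each of 4 groups, over all 12 arrays (8 residual and 2.36 prior degrees of freedom), and two-sided p-values were adjusted by Benjamini-Hochberg over all 24351 probes; the threshold was 0.05. SE is the standard error of a log2 difference. The fit was tested on simulated data. Precision is limited by the number of arrays.

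The replicate numbers were taken to pair the samples: the design text speaks of 3 replicate experiments of 4 samples, and the deviations of same-numbered samples from their group means correlated at 0.308 to 0.843 in all 18 pairs. All replicate 3 arrays, and no others, share scan day 3 and the later software version. In that replicate, pairing and batch cannot be told apart. A fit with the replicate number as a block was run beside the main one, and its calls are given where they differed for member probes and pathway genes.

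The 5 genes, the pathway lists and the marker lists were chosen with earlier results of these data known. Named were all member probes, Myd88, pathway genes past the threshold (at most 4 per list and comparison) with 12 listed genes, and the 5 most and 3 least correlated genes. Pathway genes that passed only with the replicate block or on a further probe were named after their values were seen; all probes of these genes were examined as an alternative added after seeing the data. Genes were named through a RefSeq table (GRCm38.p6, names only): 22951 probes by accession, 131 by another accession, 6582 by symbol and 3073 by synonym, while 8437 kept the file's name. Each pathway gene was represented by its probe of highest mean. Coordinates are those of the array files (mm7). Sequences are the deposited probe sequences. Alternatives were other scaling, background correction, filters, the deposited table, batch terms, sample sets and samples left out.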

Additional observations from a re-analysis of the deposited data

How the results depend on the processing

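Values of the 8 probes were recomputed under 12 other settings and 12 left-out samples. Of these values, 913 moved by less than 1 SD between replicates and 27 by more, and none that passed reversed. Many of the 913 could not move. A filter, 1 probe per gene, only the groups compared and the replicate block leave a probe's log2 difference unchanged. So does leaving out a sample of a group that is not compared. The number 913 is therefore no measure of robustness. In C57BL/6 cells 2 probes passed in all 12 left-out fits, 1 passed without the samples of conflicting description, 0 with the treatments of the descriptions and 1 with 1 probe per gene, where only 1 Pde4b probe is tested. In MyD88-null cells 2 to 3 passed with samples left out (2 without MyD88-null control replicate 2, where A_52_P370274 no longer passed), 0 with the descriptions and 1 with 1 probe per gene. Over all probes, 78 passed in C57BL/6 and 112 in MyD88-null cells without the samples of conflicting description. With the descriptions 0 of all probes passed in either. Between control cells, where 1 probe passed, 0 passed with quantile normalization, no filter, the deposited table, without the samples of conflicting description, with the descriptions and with only the groups compared. There 2 passed with the filter on all 12 arrays, the replicate block, slide as a random block and scan day as a block, and 0 to 2 with samples left out (0 in 8 fits; 2 without MyD88-null apoA-I replicate 1 or 3); the cause was not tested. Of the pathway genes, each by its probe of highest mean, 0 passed without a block. Counting a gene where any of its probes passed, an alternative added after seeing the data, gave 3 in C57BL/6 and 2 in MyD88-null cells and 0 in the other comparisons. By the probe of highest mean 4, 5 and 1 passed in C57BL/6 cells with the replicate, slide and scan day block, 2 and 1 in MyD88-null cells with the replicate and slide block, 1 and 1 between control cells with these, and 1 between treated cells with the slide block. Beside these and the calls given in the report, the replicate block changed no call of the 8 probes or of the 82 genes by their probe of highest mean. Over all probes it raised the passing number from 185 to 805 in C57BL/6, from 269 to 930 in MyD88-null, from 14 to 122 in control and from 12 to 43 in treated cells. Quantile normalization shifted the median of all probes in the MyD88-null response to -0.12; Pde4b A_51_P512340 was then at 4.55. Normexp background correction brought that probe to 4.17 and A_52_P370274 to 2.47. Signal over background limited the Pde4d probes and the long-form Pde4b probe.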
